A study of Homo sapiens with 7 samples.

Results

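The S100 genes encode small calcium-binding proteins. The 10 described here were S100A2, S100A3, S100A4, S100A6, S100A10, S100A11, S100A13, S100A14, S100A16 and S100P, taken by symbol from the 20056 gene symbols of the expression table, which holds 21 S100 genes in all. The transcription rate (TR) of each gene, its steady-state mRNA abundance (RA) and its translation activity (TA) were measured in log-phase HCT116 cells, a human colorectal carcinoma line with an epithelial origin. TR came from 2 GRO-seq libraries, in which nascent RNA is labelled with bromo-UTP in isolated nuclei and sequenced. RA came from 3 RNA-seq libraries of total cell mRNA, and TA from 2 libraries of the mRNA found on polysomes, the ribosome-loaded fraction of a sucrose gradient, after a short incubation with cycloheximide, a drug that holds ribosomes on the mRNA. No genotype, treatment group or time course was involved, so the 3 groups differ in the assay alone and the question is how the level of each S100 mRNA changes from synthesis to polysome. Values are RPKM, read counts scaled to exon length and to the mapped reads of the library.

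An S100 protein usually works as a dimer whose subunits each carry a pair of EF-hands, the loop-and-helix motif that binds calcium. Calcium binding opens a surface that docks a target protein, and the targets include annexins, myosin heavy chain, ezrin and ubiquitin ligase adaptors. Some S100 proteins are also released from cells and bind the receptor RAGE. Most genes of the family lie in the epidermal differentiation region of human chromosome 1, and several are abundant in epithelia and carcinomas.

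The genes sit close together, with S100P apart. On GRCh37, 9 of the 10 lay on the minus strand of chromosome 1, and 7 of these filled a block of 96.8 kb, chr1:153507075-153603836. The block runs from S100A6 (chr1:153507075-153508720) through S100A4, S100A3, S100A2, S100A16 and S100A14 to S100A13 (chr1:153591263-153603836). S100A10 (chr1:151955391-151966335) and S100A11 (chr1:152004982-152020383) formed a pair 38.6 kb apart, 1487 kb from the block. S100P lay on the plus strand of chromosome 4, chr4:6695605-6698897. The representative transcripts have 2 to 4 exons, and untranslated sequence makes up 37.8% (S100A6) to 73.6% (S100A16) of them.

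Promoter sequence is shown as background to the TR values. These are GRO-seq reads counted over exons and were not assigned to a promoter. The letters TATAA were searched on the gene's strand in the 60 bases before each RefSeq transcription start on GRCh38.p14. They occurred before 5 of the 10 genes (S100A4, S100A6, S100A13, S100A14 and S100P), with the motif starting 28 to 31 bases before the start, against 5.15% of 10588 tested genes with a window. Of the 14 windows of the members, 5 held the letters (35.7%), against 5.13% of all 35116 windows. With either strand counted the share was 6.69% of all windows and 35.7% of the members' windows. S100A2, S100A3, S100A10, S100A11 and S100A16 lacked the letters in every window. The 5 windows with the letters are printed first, with TATAA in capitals. Those of S100A10 and S100A11 follow as examples without it.
S100A6, chr1:153535992-153536051, minus strand: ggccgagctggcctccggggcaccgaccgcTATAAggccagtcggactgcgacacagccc
S100A4, chr1:153545807-153545866, minus strand: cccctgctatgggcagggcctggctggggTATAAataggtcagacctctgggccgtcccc
S100A14, chr1:153616326-153616385, minus strand: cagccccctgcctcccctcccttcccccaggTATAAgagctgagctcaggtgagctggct
S100A13, chr1:153627506-153627565, minus strand: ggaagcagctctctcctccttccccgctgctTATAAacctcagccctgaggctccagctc
S100P, chr4:6693818-6693877, plus strand: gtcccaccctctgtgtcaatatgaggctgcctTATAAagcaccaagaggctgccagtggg
S100A10, chr1:151993860-151993919, minus strand: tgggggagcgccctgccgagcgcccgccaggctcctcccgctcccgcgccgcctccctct
S100A11, chr1:152037005-152037064, minus strand: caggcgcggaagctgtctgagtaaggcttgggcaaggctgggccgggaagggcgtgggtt
The letters were thus found in genes at both ends of the RA range, S100A6 and S100P. S100A13 has 3 such windows, of which the other two lack the letters. A match in these letters describes the window and does not show that it is used in HCT116 cells.

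The libraries held 3391897 and 5629982 reads for TR, 20299018 to 22532134 for RA, and 22421062 and 30805391 for TA, and 99.7% to 99.8% of them fell on listed genes. The cells carried the epithelial label. The 7 epithelial markers summed to 1506 and 1556 RPKM in the TR libraries, 2103 to 2824 in RA and 5689 and 5739 in TA, and none was at 0. The 10 markers of other cell types summed to 26.6 and 27.2 RPKM in TR, 10.4 to 14.4 in RA and 3.51 and 4.96 in TA, most of it the collagen COL1A1. PTPRC, CD3E and CD14, of leukocytes, and PECAM1 and CDH5, of endothelium, each stayed below 0.5 RPKM in every library, and 1 to 5 of the 10 were at 0 per library. In bulk RNA, fewer cells of a type and less RNA per cell cannot be told apart. Tests were run on the 14305 genes whose mean reached 1 RPKM in 1 or more of the assays. All 10 members entered them, 9 with at least 1 RPKM in all 3 assays and S100P through TR alone. Differences are on the log2(RPKM + 0.1) scale, with Benjamini-Hochberg adjusted p-values from limma over all tested genes.

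From TR to RA, 6 of the 10 genes rose (S100A4, S100A6, S100A10, S100A11, S100A14 and S100A16), 1 fell (S100P) and 3 did not pass the test (S100A2, S100A3 and S100A13). S100P entered the tests only through TR, the assay in which it is high. Its fall from TR to RA, and that from TR to TA, is therefore partly set by the filter. With libraries centred on their medians 8 rose, S100A2 (1.17, limma adjusted p = 0.007) and S100A13 (1.18, limma adjusted p = 0.0086) among them. Among all tested genes 19.2% were higher in RA than TR and 48% were lower. The median log2 difference of the 10 genes was 1.63, and that of all tested genes -0.58. The figures for all tested genes include genes that entered through TR alone. Among the 10825 genes with at least 1 RPKM in all 3 assays, 2632 were higher in RA and 3656 lower, with a median of -0.17. In that set 6 members were higher and 0 lower, and S100P was not part of it. From RA to TA no member passed the test in either direction, against 6.66% of all genes higher and 29.2% lower. Between TR and TA, 5 members were higher in TA (S100A4, S100A6, S100A10, S100A11 and S100A16) and S100P was lower, where 17% of all genes were higher and 57.5% lower. The last comparison is the sum of the other two and is no separate evidence.

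**Figure D1:**
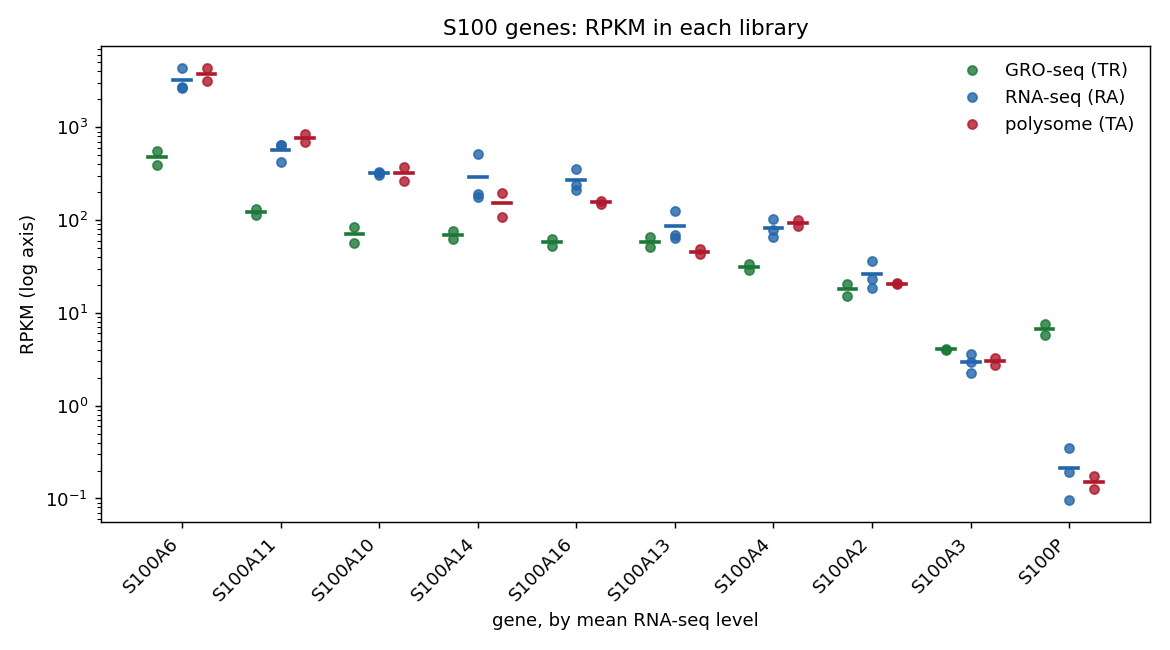
RPKM on a log axis for the 10 S100 genes, ordered by mean RA, with 1 point per library (2 TR, 3 RA, 2 TA) and a bar at the mean of each group. S100A6 is highest in every library, and S100P is the gene whose TR points lie far above its RA and TA points.

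In sum, the 10 genes took up 0.302% and 0.232% of all RPKM in the TR libraries. They took up 1.06%, 1.64% and 1.11% in RA, and 1.48% and 1.18% in TA. The shares of RA and TA overlapped, and both were above those of TR in every library. S100A6 alone made 52.0% of the members' mean RPKM in TR, 66.3% in RA and 70.7% in TA. The highest member exceeded the lowest by 118 times in TR, 15273 times in RA and 24874 times in TA, with the last pair of ratios resting on S100P at 1 to 4 reads per library. Leaving S100P out, the SD of log2 mean RPKM over the other genes was 1.89 in TR, 2.87 in RA and 2.98 in TA. The paper reports an SD rising in the same order over all the genes it counted as expressed, so this widening is not particular to the S100 genes.

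The order of the levels was largely kept. S100A6 was first and S100A11 was next in TR, RA and TA, and neither overlapped its neighbour in any of them. In TR, S100A10, S100A14, S100A13 and S100A16 followed with overlapping ranges between neighbours, then S100A4, S100A2, S100P and S100A3, each separate from the next. In RA, S100A10, S100A14 and S100A16 overlapped in that order, as did S100A13 and S100A4, and S100A2, S100A3 and S100P stood below them without overlap. In TA the ranges of S100A16 and S100A14 were the only neighbouring ones to overlap, S100A4 stood above S100A13, and S100A3 and S100P closed the order. S100P thus moved from above S100A3 to below it.

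S100A6, also called calcyclin, is a small S100 protein that binds the ubiquitin-ligase adaptor CACYBP. It gave 556 and 395 RPKM in the TR libraries, 2691, 4403 and 2629 in RA, and 4341 and 3176 in TA. Every RA and TA value was above every TR value, and the RA and TA values overlapped. Its mean ranked 27th of all genes in TR, 3rd in RA and 2nd in TA. RA exceeded TR by 2.75 (SE 0.51, limma adjusted p = 0.0017), the largest rise of the 10, and TA differed from RA by 0.24 (SE 0.51, limma adjusted p = 0.747). Without GRO-seq replicate 2 the RA rise was 2.50 and no longer passed (limma adjusted p = 0.0554).

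S100A10 and S100A11 are the annexin partners. S100A10, which has lost calcium binding and forms a tetramer with annexin A2, gave 84.4 and 57.2 RPKM in TR, 330.4, 309.8 and 320.0 in RA, and 265 and 373 in TA. Its RA values were the tightest of the family relative to their mean, at 320.1 ± 10.3 RPKM (SD, n = 3), and the TA pair lay on either side of them. RA was 2.20 above TR (SE 0.26, limma adjusted p = 0.00012), and TA differed from RA by -0.03 (95% interval -0.62 to 0.57).

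S100A11, which docks on annexin A1, gave 132 and 113 RPKM in TR, 419, 653 and 639 in RA, and 689.7 and 854 in TA. Its 3 groups did not overlap, and each TA value was above each RA value. RA exceeded TR by 2.20 (SE 0.30, limma adjusted p = 0.0003). The step to TA was 0.46 (SE 0.30, 95% interval -0.24 to 1.15, limma adjusted p = 0.266) and did not pass the test. S100A11 also has 8 processed pseudogenes in GENCODE 44, whereas the other members have none named after them, so reads shared with these copies make its values less certain.

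S100A4, also called metastasin, binds the tail of nonmuscle myosin heavy chain. The TR libraries held 34.0 and 28.7 RPKM, the RA libraries 78.5, 102 and 64.9, and the TA libraries 101 and 86.0. Both TA values lay within the RA range, and all 5 values exceeded those of TR. The RA rise was 1.36 (SE 0.22, limma adjusted p = 0.00087), about 2.57-fold, and TA differed from RA by 0.21 (95% interval -0.31 to 0.73).

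S100A14 and S100A16, neighbours in the block, encode S100 proteins that are abundant in epithelia and widely expressed, respectively. For S100A14 the values were 76.8 and 63.0 RPKM in TR, 191, 513 and 178 in RA, and 197 and 108 in TA. RNA-seq replicate 2 stood far above the other RA libraries, and TA overlapped RA. RA was 1.90 above TR (SE 0.48, limma adjusted p = 0.0079), with 6 of 6 library pairs higher. That call was lost without GRO-seq replicate 1 (2.04, limma adjusted p = 0.067) or GRO-seq replicate 2 (1.76, limma adjusted p = 0.104), and without RNA-seq replicate 2 the mean RA was 185 RPKM instead of 294. The difference of TA from TR, 1.06 (SE 0.52), had a limma adjusted p of 0.097, which became 0.0116 without RNA-seq replicate 2 and 0.0181 in a fit of the TR and TA libraries alone.

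S100A16 read 63.2 and 52.7 RPKM in TR, 209.8, 354 and 241 in RA, and 150.3 and 159 in TA. All TA values lay below all RA values and above all TR values. RA rose over TR by 2.18 (SE 0.26, limma adjusted p = 0.00013). TA differed from RA by -0.76 (SE 0.26, 95% interval -1.35 to -0.16), lower in 6 of 6 library pairs, with a limma adjusted p of 0.051 that missed the threshold. Without RNA-seq replicate 1 it passed (-0.92, limma adjusted p = 0.026), and it also passed, at 0.0465, when only genes reaching 1 RPKM in all 3 assays were tested.

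S100A13 takes part in the export of FGF1, a growth factor that lacks a signal peptide. Its values were 51.1 and 65.5 RPKM in TR, 68.4, 125 and 64.9 in RA, and 48.3 and 42.9 in TA. TR and RA overlapped, and both TA values lay below every other library. RA differed from TR by 0.51 (SE 0.30, limma adjusted p = 0.164) and TA from RA by -0.85 (SE 0.30, limma adjusted p = 0.056), the lowest value of the 10 genes in that comparison. The call for TA against RA was made without RNA-seq replicate 1 (-0.98, limma adjusted p = 0.0486). Of its annotated exon bases, 10.6% are shared with S100A1 on the opposite strand and 24.2% with a long non-coding RNA on its own strand. The strand setting of the counting is not given in the sources used here, so reads from these partners cannot be told apart from its own.

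**Figure D2:**
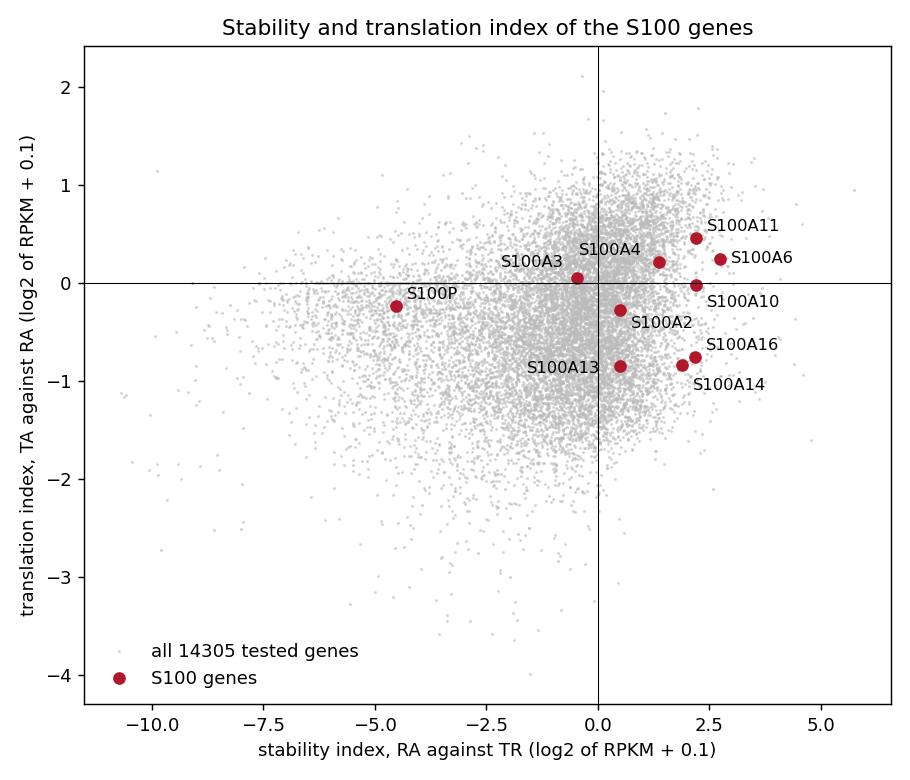
Stability index (RA against TR, horizontal) and translation index (TA against RA, vertical), both on the log2(RPKM + 0.1) scale, for the 10 S100 genes in red and all 14305 tested genes in grey. S100A4, S100A14, S100A16, S100A10, S100A11 and S100A6 lie at 1.36 to 2.75 on the horizontal axis, and S100P lies at -4.52.

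The members spread more widely in the plot of the indices along its horizontal than along its vertical axis. The stability index, log2 of RA over TR, ran from -4.52 (S100P) to 2.75 (S100A6), and the translation index, log2 of TA over RA, from -0.85 (S100A13) to 0.46 (S100A11). The 3 lowest translation indices belonged to S100A13, S100A14 and S100A16, which lie next to each other in the block. Of these, S100A13 and S100A16 had an unadjusted p under 0.05, and no other member did. The stability index of S100A6 was higher than that of 99.5% of tested genes. Those of S100A10, S100A11 and S100A16 were above 98.2% or more.

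S100A2 and S100A3 did not pass the test in any of the 3 comparisons. S100A2, first described as a gene reduced in breast tumour cells, gave 15.3 and 20.5 RPKM in TR, 18.6, 36.3 and 23.2 in RA, and 20.9 and 20.4 in TA. All 3 groups overlapped, and RA differed from TR by 0.49 (95% interval -0.16 to 1.15, limma adjusted p = 0.156). Without RNA-seq replicate 1, the lowest RA library, that difference was 0.71 and passed (limma adjusted p = 0.0426).

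S100A3, a cysteine-rich protein of the hair cuticle, gave 3.99 and 4.09 RPKM in TR, 2.27, 3.61 and 2.97 in RA, and 2.77 and 3.26 in TA. Every RA and TA value was below both TR values, yet the RA against TR difference of -0.47 (SE 0.25, limma adjusted p = 0.135) did not pass. The TR values rest on 10 and 17 reads, with 95% counting intervals of 1.92 to 7.35 and 2.38 to 6.55 RPKM. The whole S100A3 gene, chr1:153519805-153521734, lies inside the span of S100A4, chr1:153516089-153522612, on the same strand, with no exon base shared. RNA from S100A4 introns that reached the exon regions of S100A3 would be counted there, and this was not tested.

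S100P, first purified from placenta, binds ezrin and the receptor RAGE. It gave 5.78 and 7.66 RPKM in TR, 0.193, 0.348 and 0.0954 in RA, and 0.127 and 0.175 in TA. Its TR values lay far above all 5 other libraries. The reads behind them were 10 and 22 in TR, 2, 4 and 1 in RA, and 2 and 2 in TA, although the RA and TA libraries are deeper. The RA against TR difference was -4.52 (SE 0.36), a value that depends on the added 0.1. Since S100P entered the tests only through TR, where it is high, this fall is given without its p-value. Pooled reads per library read give TR over RA as 32.1 (exact 95% interval 13.9 to 86.2) and TR over TA as 47.2 (16.7 to 184). TA over RA was 0.681 (0.146 to 2.68), so no difference between RA and TA was detectable at this depth. These intervals cover counting error only.

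**Figure D3:**
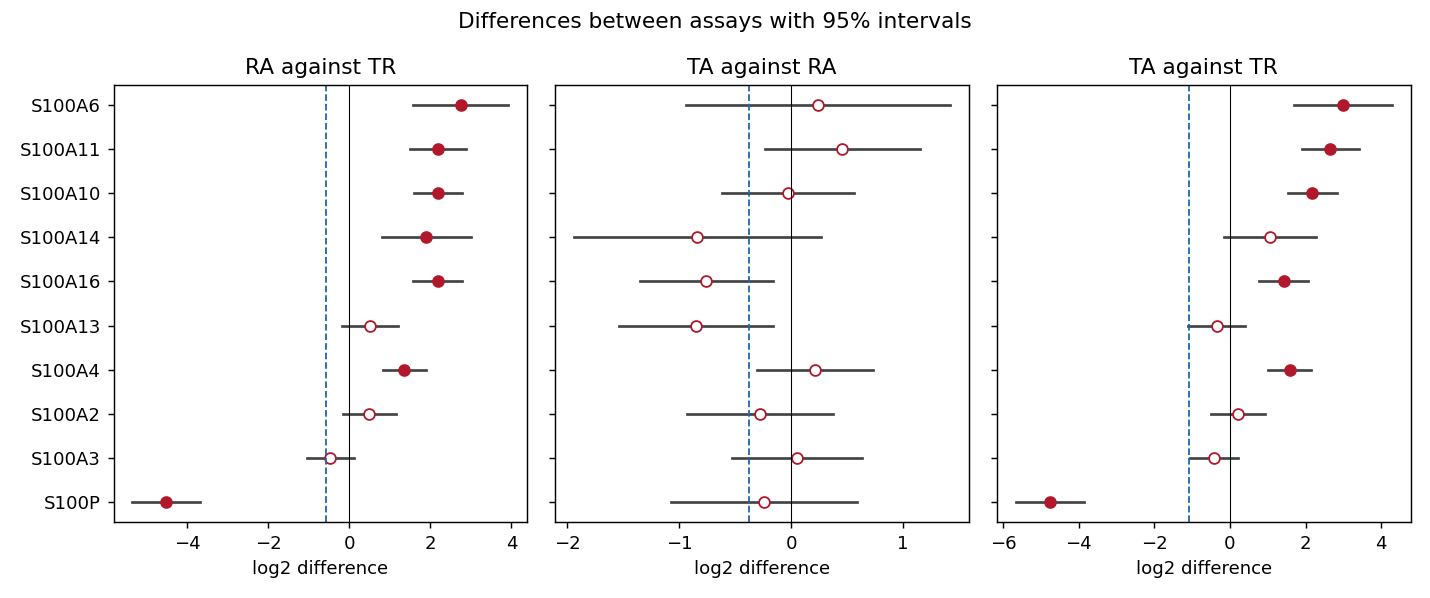
Log2 differences of the 10 S100 genes in the 3 comparisons, with 95% intervals from limma, filled points for an adjusted p under 0.05, a solid line at 0 and a dashed line at the median of all tested genes (-0.58, -0.37 and -1.08). Filled points lie to the right for 6 genes in RA against TR and to the left for S100P, and no point is filled in TA against RA.

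RNA-seq replicates 1 and 3 gave like values for most members, with a median ratio of 1.03, the lowest being 0.656 for S100A11 and the highest that of S100P, which rests on 2 and 1 reads. RNA-seq replicate 2 was above the geometric mean of replicates 1 and 3 in 9 of 10 members, the exception being S100A10 at 0.953 times. The median ratio for replicate 2 was 1.61, against 1 over all tested genes, whose log2 ratios ran from -0.64 at the 10th to 0.58 at the 90th percentile. S100A14 was at 2.78 times, a ratio above that of 99.3% of tested genes, and S100A13, S100P, S100A2, S100A6 and S100A16 also lay past the 90th percentile. Without that library, RA over TR was 5.60 for S100A6 where all libraries gave 6.82, and 2.64 for S100A14 where they gave 4.21. The same 6 genes were higher in RA than in TR, and S100P lower, with it left out.

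**Figure D4:**
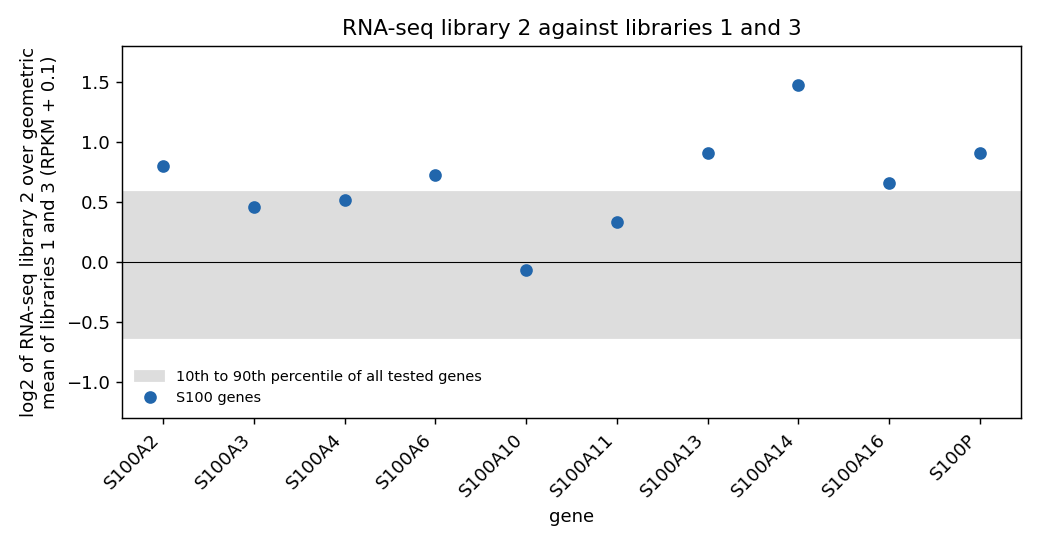
Log2 ratio of RNA-seq replicate 2 over the geometric mean of replicates 1 and 3 (RPKM + 0.1) for each S100 gene, with the 10th to 90th percentile of all tested genes shaded (-0.64 to 0.58). S100A14 is highest at 1.47, and S100A10 is the only gene below 0.

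The exon lengths behind the values were short, from 510 bases for S100P to 1402 for S100A13, with a median of 850 against 3027 over all tested genes. Over tested genes, Spearman's rho of exon length was 0.067 with the RA against TR difference and -0.191 with TA against RA, across genes, which are not independent replicates. The part of length in the members' values was not tested.

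The rest of the family was low or absent in these cells. Of the other 11 S100 genes in the table, 3 entered the tests. S100A1 and S100A5 fell from TR to RA, and S100G entered only through TR, so its values are given without the test. S100A1, a heart and muscle calcium sensor, gave 11.4 and 10.8 RPKM in TR, 1.91, 2.47 and 2.13 in RA, and 0.765 and 0.826 in TA. It was lower in RA than TR (-2.31, limma adjusted p = 3.81e-05) and lower again in TA (-1.33, limma adjusted p = 0.0048). S100A1 shares exon bases with S100A13 on the opposite strand, so the same limit applies to it.

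S100A5 gave 9.55 and 14.8 RPKM in TR, 1.73, 2.25 and 1.30 in RA, and 0.686 and 1.19 in TA, and was lower in RA than in TR (-2.72, limma adjusted p = 0.00019). S100G, the intestinal calcium carrier calbindin-D9k, was at 2.60 and 2.35 RPKM in TR, from 4 and 6 reads, and at 0 in all RA and TA libraries. The remaining 8, among them S100A8 and S100A9, the subunits of calprotectin of myeloid cells, had at most 3 reads in any library. S100P, S100A1, S100A5 and S100G thus had TR values of 2.35 to 14.8 RPKM and far lower RA values.

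The partners that S100 proteins dock on went in several directions. Of 18 partners and receptors, 17 were tested. In RA against TR, 9 (52.9%) were higher and 6 (35.3%) lower, where 19.2% and 48% of all tested genes were. Among those lower, FGF1 and IL1A entered the tests only through TR, so their falls are partly set by the filter, as are some among all tested genes. In TA against RA, 5 (29.4%) were higher and 4 (23.5%) lower, where 6.66% and 29.2% of all tested genes were. The median difference was 0.50 for RA against TR and 0.09 for TA against RA, against -0.58 and -0.37 over all tested genes. Of the 4 annexins, all rose from TR to RA, and ANXA1 and ANXA2 rose again from RA to TA, while ANXA6 (0.66, limma adjusted p = 0.0645) and ANXA11 (0.36, limma adjusted p = 0.119) did not pass there. ANXA2, the partner of S100A10, gave 139 and 125 RPKM in TR, 289.8, 270.5 and 250.1 in RA, and 549 and 507 in TA, and its TA exceeded RA by 0.97 (SE 0.21, limma adjusted p = 0.012). In RA the means of ANXA2 and S100A10 were 270.2 and 320.1 RPKM, and in TA 528 and 319 RPKM.

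ANXA1, the partner of S100A11, gave 112 and 47.3 RPKM in TR, 371, 597 and 378 in RA, and 1414 and 831 in TA. Its rise was 2.59 from TR to RA (limma adjusted p = 0.001) and 1.31 from RA to TA (limma adjusted p = 0.0497). AHNAK, a giant scaffold held by the annexin A2 and S100A10 complex, went the other way, with 42.5, 44.7 and 21.1 RPKM in RA and 8.41 and 3.32 in TA (-2.67, limma adjusted p = 0.0058). The difference in index between an S100 gene and its partner was not tested.

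CACYBP, which binds S100A6, gave 44.4 and 49.2 RPKM in TR, 40.7, 21.3 and 24.1 in RA, and 24.6 and 29.8 in TA. It was lower in RA than TR (-0.76, limma adjusted p = 0.039), in the opposite direction to S100A6. MYH9, the myosin heavy chain bound by S100A4, gave 84.7 and 56.5 RPKM in TR and 137, 124 and 189 in RA (1.09, limma adjusted p = 0.0126), with TA at 118 and 189.6.

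The partners of S100P were expressed although S100P mRNA was nearly absent. EZR, the membrane-to-actin linker ezrin, had the highest mean RA of the partners, with 360.1, 801 and 803 RPKM in RA and 1610.5 and 1484 in TA (1.33 for TA against RA, limma adjusted p = 0.046). S100PBP, the nuclear S100P-binding protein, gave 8.19, 9.38 and 8.39 RPKM in RA and 3.31 and 3.50 in TA (-1.32, limma adjusted p = 0.0037). Of the receptors, BSG, the surface protein basigin, gave 105 and 54.7 RPKM in TR, 417, 351 and 386 in RA and 846 and 945 in TA. AGER, which encodes RAGE, gave 31.4 and 36.6 RPKM in TR but 2.45, 5.91 and 2.97 in RA and 1.01 and 1.07 in TA (-3.24 for RA against TR, limma adjusted p = 8.83e-05). TLR4 had 1 read in all libraries together.

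Other genes with EF-hands were mostly higher in RA than in TR. Of 36, 35 were tested. In RA against TR, 24 (68.6%) were higher and 3 (8.57%) lower (median 1.03), where 19.2% and 48% of all tested genes were. Among those lower, CALB1 and RCN3 entered the tests only through TR, so their falls are partly set by the filter. The share of all tested genes includes such genes too. In TA against RA, 7 (20%) were higher and 3 (8.57%) lower (median 0.06), where 6.66% and 29.2% of all tested genes were. The myosin light chain MYL6 gave 184 and 164 RPKM in TR and 445, 430.2 and 323 in RA (1.19, limma adjusted p = 0.0031). MYL12B rose by 2.53 (limma adjusted p = 2.16e-05) and MYL12A by 1.92 (limma adjusted p = 0.00045). CALM3, which encodes calmodulin, rose to RA by 1.35 (limma adjusted p = 0.0174) and was lower in TA than RA (-1.34, limma adjusted p = 0.0345).

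The S100-fused genes, which join an S100 domain to long epidermal repeats and include filaggrin and trichohyalin, were close to 0. Of the 7, only TCHH reached the filter, and only through TR, at 1.90 and 2.01 RPKM in TR, 0.148, 0.114 and 0.202 in RA, and 0.0835 and 0.159 in TA. Of 9 genes listed beside the block, 5 were tested, with 1 (20%) higher and 2 (40%) lower in RA than TR. These shares were near those of all tested genes, 19.2% and 48%. ILF2 gave 86.6 and 85.0 RPKM in TR, 232, 201 and 192 in RA, and 430.5 and 429 in TA, and was higher at both steps (1.27 for RA against TR, limma adjusted p = 0.00064, and limma adjusted p = 0.0072 for TA against RA). SNAPIN, a subunit of the BORC and BLOC-1 complexes, went from 89.1 and 110.3 RPKM in TR to 34.4, 30.0 and 28.7 in RA (-1.68, limma adjusted p = 5.77e-05). Genes close to the block thus moved in both directions from TR to RA, as did S100 genes.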

How the data were processed

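Reads were aligned by the authors to the hg19 build using TopHat with default settings and assigned to exons by HTSeq-count. The deposited unit is RPKM, given per gene in 2 GRO-seq (TR), 3 RNA-seq (RA) and 2 polysome (TA) libraries. CASAVA is also named in the submitters' processing notes. The strand setting and gene annotation are not given in the sources used here. RPKM is relative to each library's own reads, so TR, RA and TA differences are relative levels, and the stability index is no half-life.

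Library sizes and reads per gene were recovered from the RPKM values, since reads come out whole for 100% of values above 0 (tolerance 0.01). Simulated data returned 7 of 7 sizes. The floor was taken as 3 reads. Counting intervals are exact at 95%.

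Tests used limma 3.58.1 in R 4.3.3 on log2(RPKM + 0.1) with a trend in eBayes, all 7 libraries in 1 fit, the 14305 genes whose mean reached 1 RPKM in 1 or more assays, and a Benjamini-Hochberg threshold of 0.05. On simulated data for TA against RA, limma called 96 of 100 genes changed by 2 on the log2 scale and 17 of 100 changed by 1. Those data held 13346 genes with no change, whereas the measured libraries gave 953 higher and 4173 lower calls. The adjusted threshold therefore falls at a different unadjusted p in each. The share of such changes called in the measured libraries was not tested. Python 3.11.15 with numpy 2.4.6, pandas 2.3.3, scipy 1.17.1 and matplotlib 3.10.9 did the rest. Gene positions are from GENCODE 44 on GRCh37 and promoter windows from RefSeq on GRCh38.p14.

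The members, lists and tests were chosen with earlier results of these data known. Named outside the members were up to 4 genes of each list with the highest RA and direct protein partners. The 5 tested genes outside all lists nearest to S100A6 over the 7 libraries were also named. AGER, TLR4, ANXA6, ANXA11, PTPRC, CD3E, CD14, PECAM1, CDH5, S100A8 and S100A9 were named from the lists after their values were seen. The paper calls the replicates biological, without saying whether they came from separate cultures, so p-values measure the spread between these libraries. Replicates with the same number did not deviate together (r of their differences 0.149 for TR and RA, 0.020 for TR and TA, -0.562 for RA and TA, over 10825 genes), so no block was used. Alternatives were the pseudocount, the filter, centring, the trend, the samples fitted, the block, and leaving out each library. Protein sequences were not used here.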

Additional observations from a re-analysis of the deposited data

How the results depend on the processing

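Of 477 member values under the 16 alternatives, 450 kept their direction and side of the threshold, 3 were lost, 14 became called and 10 changed sign. The all-gene median of RA against TR moved from -0.58 to 0.09 when libraries were centred on their medians, with calls going from 2743 higher and 6870 lower to 5066 and 4814, and TA against RA calls from 953 and 4173 to 2713 and 1404. Centring raised the members higher in RA than TR from 6 to 8 (S100A2 and S100A13 added), those higher in TA than TR to 8 and those higher in TA than RA to 1, S100A11 (0.96, limma adjusted p = 0.0461), and changed the sign of S100A3 (0.21 for RA against TR, 0.76 for TA against TR), S100A13 (0.83 for TA against TR), and S100A2 (0.23), S100A10 (0.48) and S100P (0.26) for TA against RA. Relative to the all-gene median these members therefore stood differently, while the 6 rises from TR to RA held. S100P stayed lower in RA than TR, which its entry through TR alone partly set. Testing only genes that reached 1 RPKM in all 3 assays removed S100P, leaving 0 members lower in RA or TA than TR, and made 1 member, S100A16, lower in TA than RA. The all-gene medians under that filter were -0.17 for RA against TR and -0.51 for TA against TR, closer to 0 than with all tested genes. With libraries left out, members lower in TA than RA ranged from 0 to 2, the 2 being S100A13 and S100A16 without RNA-seq replicate 1. TA against RA of S100A3 ranged from -0.12 to 0.21, of S100P from -0.54 to 0.063 and of S100A10 from -0.27 to 0.22, each crossing 0. With a replicate block by library number, 6 members were higher and 1 lower in RA than TR, and 0 and 0 in TA against RA, with no call of a member changed, while all-gene calls in TA against RA fell to 109 and 1387. The crossed pairing as a replicate block, chosen after seeing the data, gave 1 member lower in TA than RA (S100A13, -1.02, limma adjusted p = 0.0237), 7 higher in RA than TR (S100A13 added, 0.68, limma adjusted p = 0.0414) and 6 higher in TA than TR (S100A14 added, limma adjusted p = 0.0465). Depth limits S100P and S100A3 most. They had 10 to 22 reads in TR, and S100P 1 to 4 per library elsewhere, which leaves wide counting intervals.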

Other observations

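The genes whose 7 library values lay closest to those of S100A6 were EIF3M (distance 0.368), GTSF1 (0.447), EIF3E (0.450), LTA4H (0.519) and GHITM (0.519). They came from 14225 tested genes. Every gene of the lists used here was left out, partners, EF-hand genes, markers and genes beside the block included. Each gene was centred on its own mean of log2(RPKM + 0.1). EIF3M and EIF3E encode subunits of the translation initiation factor eIF3, LTA4H a leukotriene A4 hydrolase and GHITM a protein of the inner mitochondrial membrane. EIF3E had mean levels of 47.5 RPKM in TR, 371 in RA and 404 in TA. EIF3M had 25.5, 155 and 193 RPKM. Within the S100 family, S100A11 was nearest to S100A6 (distance 0.999, with 83 genes closer), then S100A10 (1.25, with 197 closer), and S100P was farthest (8.97). The distances describe 7 libraries of 3 assays and were taken from S100A6 alone, so other pairs of members were not compared. Of the 14225 genes compared, 83 lay closer to S100A6 than any other member did. The nearest genes were picked from that many candidates, so their being closer says little about the family.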
